A study of Homo sapiens with 6 samples.

Results

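The clustered protocadherin genes lie side by side on the long arm of human chromosome 5 in an alpha, a beta and a gamma cluster. The members were the rows of the count table whose symbol is PCDHA, PCDHAC, PCDHB, PCDHGA, PCDHGB or PCDHGC followed by a number on chromosome 5, which gave 54 of 78932 rows. They comprised 16 alpha genes, 16 beta genes and 22 gamma genes, and 1 of the alpha genes, PCDHA14, is annotated as a pseudogene. Expression was measured by RNA-seq of poly(A) RNA from T24, an established line of urothelial carcinoma cells grown in medium with serum. In 3 cultures a non-targeting control siRNA (siNC) was transfected and in the other 3 siRNA against TRIM28 (siTRIM28), and all 6 carry the same batch label. TRIM28 is a co-repressor that zinc finger proteins bring to chromatin. The comparison asks how its depletion changes the transcriptome, and here how it bears on these adhesion genes. The TRIM28 siRNA sequence or sequences used for these libraries and the time between transfection and RNA extraction are not given in the sources used here, and siTRIM28 is a partial loss of the transcript in 1 cell line.

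Clustered protocadherins are cell-surface proteins of the cadherin superfamily and are best known in neurons, where each cell uses its own small choice of them as an identity label. Each alpha or gamma gene has a promoter and a large variable first exon of its own, which is spliced to constant exons that the whole cluster shares, so the variable exon encodes the outer part of the protein and the constant exons the common inner end. The beta genes are separate genes with no shared constant exons. The choice of promoter is known to involve CTCF, cohesin and DNA methylation, and most variable promoters carry a short conserved element whose core is CGCT.

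The shared exons decide how the counts can be read, so the smallest of each set is printed whole, in lower case. In the GENCODE v29 annotation (GRCh38, plus strand) 15 alpha genes share 3 coding exon segments of 59, 89 and 308 bases, and all 22 gamma genes share 3 of 59, 89 and 224 bases. PCDHA14 has none of the alpha segments. The 59-base alpha exon lies at chr5:140978949-140979007 and the 59-base gamma exon at chr5:141494807-141494865.
alpha constant exon: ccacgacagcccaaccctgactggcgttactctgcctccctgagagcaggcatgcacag
gamma constant exon: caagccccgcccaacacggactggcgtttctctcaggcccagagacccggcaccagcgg
A read inside either of these exons cannot be assigned to 1 gene of its cluster from its sequence.

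The promoters are where the genes differ, and 7 windows are shown. The first 4 belong to members with 86 to 1619 reads over the 6 libraries beyond those shared in a cluster. The last 3 belong to members with almost none (0 to 2). For PCDHB2 and PCDHB3, a gene on the opposite strand had nearly the same counts, so which strand their reads came from cannot be told. The windows come from the RefSeq promoter table (GRCh38.p14, plus strand), which matched 47 of the 54 members with 52 promoters, several genes having more than 1 start. PCDHB6, the beta gene with the most reads, PCDHA13 and PCDHGC5 were among the 7 members without a match and so could not be shown. Each window begins 100 bases before the RefSeq start and stops before the first exon base annotated in GENCODE v29, and capitals mark CGCT. The windows are chr5:141475866-141475946 for PCDHGC3, chr5:141094515-141094577 for PCDHB2, chr5:141100373-141100472 for PCDHB3 and chr5:141135106-141135205 for PCDHB5, followed by chr5:141172544-141172618 for PCDHB7, chr5:141373791-141373890 for PCDHGA6 and chr5:140827860-140827957 for PCDHA6.
PCDHGC3: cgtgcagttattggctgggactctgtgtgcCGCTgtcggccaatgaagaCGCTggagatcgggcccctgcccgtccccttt
PCDHB2: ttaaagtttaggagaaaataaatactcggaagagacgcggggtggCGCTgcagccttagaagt
PCDHB3: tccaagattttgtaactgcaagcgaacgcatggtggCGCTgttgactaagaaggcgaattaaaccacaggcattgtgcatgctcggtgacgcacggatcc
PCDHB5: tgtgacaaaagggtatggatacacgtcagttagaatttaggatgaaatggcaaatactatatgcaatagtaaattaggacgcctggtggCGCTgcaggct
PCDHB7: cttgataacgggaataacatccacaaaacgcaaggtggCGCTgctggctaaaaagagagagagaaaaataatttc
PCDHGA6: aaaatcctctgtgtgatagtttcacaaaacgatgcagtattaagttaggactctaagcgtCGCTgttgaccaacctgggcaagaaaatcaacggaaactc
PCDHA6: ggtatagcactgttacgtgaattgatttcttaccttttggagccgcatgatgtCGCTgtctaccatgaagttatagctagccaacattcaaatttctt
CGCT was searched on both strands from 250 bases before to 50 after each start. On the gene's strand it was in 51 of the 52 member promoters, and 54.3% of all 35116 promoters in the table held it. Between 100 and 30 bases before the start, a stretch chosen after the positions were seen, it was in 43 of the 52 member promoters (82.7%) and in 20.8% of all promoters. On either strand the shares within that stretch were 84.6% and 35.4%. The longer run GGTGGCGCT, which holds CGCT and was chosen after the windows were seen, was in 13 of 14 beta promoters, in none of the 13 alpha and 25 gamma promoters, and in 0.302% of all promoters on the gene's strand (0.501% on either strand). AGGNGGC, part of the core of the CTCF motif, was in 3 member promoters on the gene's strand, all of beta genes (5.77%, against 21.5% of all promoters), and in 4 on either strand (7.69%, against 35.9%). AGGNGGC can match at GGTGGCGCT only where an A comes directly before that run, as in PCDHB7 and PCDHB9. The share of AGGNGGC is thus no measure of how many member promoters have a CTCF site. With CGCT in all but 1 member promoter, its presence could not set apart genes with many reads from genes with almost none.

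The 6 libraries held 11712623 to 14018052 counted reads. TRIM28 itself was counted 1419, 1393 and 1382 times in siNC and 130, 96 and 109 times in siTRIM28. These groups lay far apart (log2 fold change -3.54, SE 0.07, adjusted p = 1.03e-10 by edgeR's quasi-likelihood test). Of the epithelial markers, KRT8 and KRT18 were abundant, and CDH1, EPCAM, KRT5 and KRT19 had at most 7 reads. KRT7 had 37, 41 and 37 reads in siNC and 58, 49 and 51 in siTRIM28 (log2 fold change 0.56, adjusted p = 0.0126 by edgeR). KRT8 was called higher too (0.14, adjusted p = 0.0354 by edgeR), and KRT18 (0.08) was not called. That made 2 of the 3 epithelial markers tested, beside 41.8% over all genes. Of the urothelial markers UPK1B was at 0 in every library, while PPARG had 90 to 105 reads. UPK2 and UPK3A had at most 7 reads in any library. GATA3 ran lower, with 10, 10 and 4 reads in siNC and 1, 4 and 4 in siTRIM28, but the groups overlapped and it was below the count minimum. UPK1A, with 17, 15 and 4 reads in siNC and 58, 38 and 34 in siTRIM28 (log2 fold change 1.94, adjusted p = 5.48e-04 by edgeR), and TP63 (1.01, adjusted p = 0.05 by edgeR, just under the threshold) rose, so 2 of the 3 urothelial markers tested were called. Over all genes tested 41.8% were called, and 21.4% at a mean of 10 to 40 counts, where UPK1A lies. TP63 had a mean of only 9.17 counts. Of 12 neuronal markers 4 passed the count minimum, among them TUBB3 (log2 fold change -1.71, adjusted p = 6.90e-09) and SNAP25 (-0.77, adjusted p = 2.50e-04), which fell, and NEFL (1.25, adjusted p = 2.04e-06), which rose, all by edgeR. The summed neuronal list ran from 76.7 to 81.9 CPM in siNC and from 44.5 to 48.8 CPM in siTRIM28. CPM are read counts scaled to a common library size with TMM factors. TUBB3 alone averaged 53.7 CPM in siNC and 16.4 CPM in siTRIM28, so the fall of the sum was largely that of TUBB3. NEFL averaged 7.01 CPM in siNC and 16.8 CPM in siTRIM28, and the neuronal marker STMN2 was at 0 throughout. The part of the neuronal list in the results below was not tested.

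The deposited counts of the clusters had 2 plateaus. As in any bulk RNA, fewer cells that express a gene and less RNA per such cell cannot be told apart in them. The 22 gamma rows, which encode the gamma proteins with their different outer domains, were almost level within each library. Leaving out PCDHGC3, the other 21 had 161 to 168 reads in siNC replicate 1, 158 to 168 in replicate 2 and 127 to 137 in replicate 3. In siTRIM28 they had 148 to 157, 143 to 153 and 144 to 150 reads. Depending on the library, 11 to 16 of the 22 rows had exactly the same smallest count, and 17 to 20 lay within 2 reads of it. The alpha genes formed a lower plateau in the same way, with 5 to 9 of 15 rows exactly at the smallest count. The beta genes, which share no constant exon, formed none. Apart from PCDHGC3 and the pseudogene PCDHA14, which has no shared exon, most gamma and alpha rows therefore consisted largely of reads that were also in the other rows of the cluster.

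**Figure D1:**
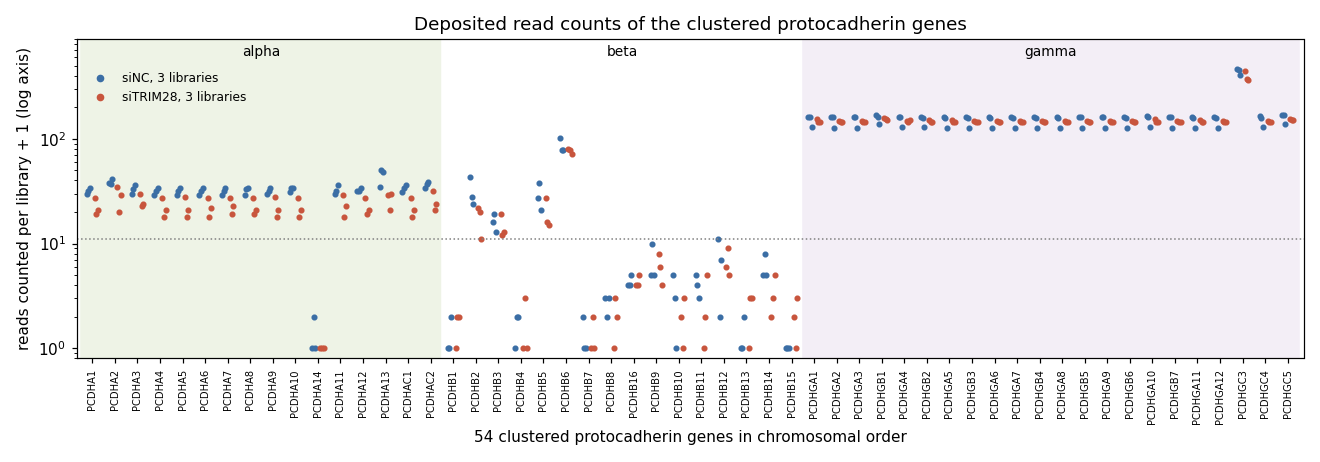
Reads counted per library (plus 1, log axis) for the 54 clustered protocadherin genes in chromosomal order, blue for the 3 siNC and red for the 3 siTRIM28 libraries, with the dotted line at a count of 10. The gamma genes sit on a plateau of 127 to 168 reads that only PCDHGC3 leaves, the alpha genes on a lower plateau, and the beta genes vary one by one.

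By the test on the counts as deposited, 41 of the 54 members had at least 10 reads in at least 3 libraries, namely 15 alpha, 4 beta and 22 gamma genes. Of these 41, 1 was called at an adjusted p under 0.05 by edgeR's quasi-likelihood test, PCDHA13, which was lower in siTRIM28, and 0 were higher, while 5 had an unadjusted p under 0.05. DESeq2 called 0 and limma-voom 1. Over all 18474 genes tested 41.8% were called, 20.5% lower and 21.3% higher. By depth, the share was 21.4% among genes with a mean of 10 to 40 counts, where the alpha genes lie, 43% at 80 to 160 counts, where most gamma genes lie, and 53.9% at 250 to 450 counts, where PCDHGC3 lies. The median log2 fold change was 0.05 over the tested members and 0.02 over all genes tested. It was -0.44 over the 15 alpha genes, all of them negative, -0.27 over the 4 beta genes and 0.07 over the 22 gamma genes, 21 of them positive. The groups did not overlap for 14 of 15 alpha genes, 1 of 4 beta genes and 0 of 22 gamma genes, beside 52% of all genes tested. The agreement within the alpha and the gamma cluster is that of the same reads counted in many rows, and the members are not separate measurements of it.

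The shared reads were therefore taken as 1 row for each cluster, equal to the smallest count among its genes in each library, and each gene was left with the reads above it. This was chosen after the counts were seen. It leaves 7 separate read sets with enough reads to test, which are the alpha shared reads, the gamma shared reads, the own reads of PCDHGC3, and PCDHB2, PCDHB3, PCDHB5 and PCDHB6. None of the 7 passed an adjusted p of 0.05 by edgeR in a fit of 18440 rows, in which 7719 were called, and 1 (PCDHB2) had an unadjusted p under 0.05. Other tools were not run on these sets. An exact permutation test of 3 against 3 libraries cannot go below p = 0.1.

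PCDHGC3, a gamma gene of the C type found at the downstream end of the cluster (ENSG00000240184, chr5:141475947-141512979), was the one gamma gene with many reads of its own. Its deposited counts were 464, 451 and 403 in siNC and 444, 375 and 363 in siTRIM28. Above the shared reads it had 303, 293 and 276 reads in siNC and 296, 232 and 219 in siTRIM28. These were 90.2% to 94.1% of all own reads of the gamma cluster in siNC and 89.2% to 92.4% in siTRIM28. The lowest of these shares, in siTRIM28 replicate 2, has a Wilson interval of 84.9% to 92.4% (95%, counting error only), and the shares of the conditions overlap.

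On the TMM-scaled CPM scale the own reads of PCDHGC3 were 21.5 ± 0.34 (SD, n = 3) in siNC and 19.7 ± 1.33 (SD, n = 3) in siTRIM28. All 3 siTRIM28 libraries were below all 3 siNC libraries, but barely, with 21.14 CPM in siTRIM28 replicate 1 and 21.17 CPM in siNC replicate 2. Of all genes tested, 52% had groups without overlap. The log2 fold change of -0.12 (SE 0.07, 95% interval -0.28 to 0.03, adjusted p = 0.184 by edgeR) did not pass the test, and that interval bounds the size of a change in either direction. As deposited, with the shared reads in the row, PCDHGC3 differed by -0.05 (SE 0.06, adjusted p = 0.51 by edgeR) and the groups overlapped.

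The remaining gamma genes had few reads of their own. PCDHGC5, the last C-type gene, had 7, 10 and 9 own reads in siNC and 4, 8 and 6 in siTRIM28. For PCDHGB1, a gene of the B subfamily, they were 6, 2 and 10 in siNC and 9, 10 and 5 in siTRIM28. In both the groups overlapped. A gene on the opposite strand within PCDHGB1, ENSG00000280026, had 6, 1 and 5 reads in siNC and 6, 6 and 4 in siTRIM28, and reads from the 2 strands cannot be told apart if strand was not used in counting. Of the 37 alpha and gamma genes that have shared exons, 25 had at most 5 own reads over the 6 libraries together and 3 (PCDHA4, PCDHGA6 and PCDHGB4) had 0. The smallest row is set to 0 in each library by the subtraction, so own reads are a lower count and a 0 does not show that the gene had none.

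The shared gamma reads, which sum the transcripts of every gamma gene, were 161, 158 and 127 in siNC and 148, 143 and 144 in siTRIM28. Scaled to CPM they were 11.0 ± 0.90 (SD, n = 3) and 11.6 ± 0.90 (SD, n = 3). The groups overlapped, and the log2 fold change was 0.07 (SE 0.10, 95% interval -0.14 to 0.29, adjusted p = 0.603 by edgeR). No difference in gamma transcripts as a whole was detectable at this depth.

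The shared alpha reads were 28, 31 and 33 in siNC and 26, 17 and 20 in siTRIM28. As CPM they were 2.28 ± 0.29 (SD, n = 3) and 1.66 ± 0.21 (SD, n = 3), and the groups did not overlap. The log2 fold change was -0.44 (SE 0.22, 95% interval -0.92 to 0.03, adjusted p = 0.121 by edgeR), which did not pass. Leaving out each library in turn gave -0.54 to -0.35. With 17 to 33 reads per library, sampling alone makes such a row uncertain.

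PCDHA13, the last of the numbered alpha genes (ENSG00000239389, chr5:140882208-141012344), was the only member called as deposited. Its counts were 34, 49 and 47 in siNC and 28, 20 and 29 in siTRIM28 (log2 fold change -0.65, SE 0.22, adjusted p = 0.0358 by edgeR). On the CPM scale siNC replicate 1 fell within the siTRIM28 range, so the groups overlapped. Most of these reads are the shared ones. Its own reads were 6, 18 and 14 in siNC and 2, 3 and 9 in siTRIM28, or 38 against 14 in all, which is below the count minimum. In GENCODE v29, 435 of its exon bases overlap AC005609.1 on the opposite strand. If strand was not used in counting, reads from that gene may be among the own reads of PCDHA13, which was not tested. The call was lost with DESeq2 (adjusted p = 0.0899) and without siNC replicate 2, siNC replicate 3, siTRIM28 replicate 1 or siTRIM28 replicate 2 (adjusted p from 0.052 to 0.117 by edgeR).

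The other alpha genes had 39 own reads or fewer each over the 6 libraries. PCDHA2 had 9, 5 and 7 in siNC and 8, 2 and 8 in siTRIM28. For the C-type gene PCDHAC2 there were 5, 5 and 5 in siNC and 5, 3 and 3 in siTRIM28, and for PCDHAC1 2, 2 and 2 in siNC and 0, 0 and 0 in siTRIM28. The PCDHAC1 difference is 6 reads against 0. PCDHA3 ran the other way, with 1, 1 and 2 own reads in siNC and 3, 5 and 3 in siTRIM28, again without overlap. None of these reached the count minimum, and the genes in this paragraph were chosen after their values were seen.

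Among the beta genes, which encode cadherin-domain proteins without the common inner end, PCDHB6 (ENSG00000113211, chr5:141150022-141153287) had the most reads. It was counted 100, 78 and 77 times in siNC and 79, 78 and 71 times in siTRIM28. The groups overlapped, and the log2 fold change was -0.06 (SE 0.14, 95% interval -0.36 to 0.25, adjusted p = 0.784 by edgeR). PCDHB3 (chr5:141100473-141103827) had 15, 18 and 12 reads in siNC and 18, 11 and 12 in siTRIM28, again with overlap. Its fold change of -0.03 (SE 0.28) has a 95% interval of -0.64 to 0.57, which leaves room for a sizeable change either way.

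PCDHB5 (chr5:141135218-141138625) had 26, 37 and 20 reads in siNC and 26, 15 and 14 in siTRIM28. On the opposite strand AC244517.11 overlaps 501 of its exon bases in GENCODE v29, and whether reads came from that strand was not tested. The 2 lowest libraries were both siTRIM28, but siTRIM28 replicate 1 lay among the siNC libraries. The log2 fold change was -0.49 (SE 0.28, 95% interval -1.10 to 0.12, adjusted p = 0.183 by edgeR). It was -0.25 without siNC replicate 2 and -0.74 without siTRIM28 replicate 1 (adjusted p = 0.538 and 0.0624 by edgeR).

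PCDHB2 (ENSG00000112852, chr5:141094578-141098703) differed most. It had 42, 27 and 23 reads in siNC and 21, 19 and 10 in siTRIM28, without overlap. In CPM this was 2.26 ± 0.67 (SD, n = 3) against 1.32 ± 0.41 (SD, n = 3). The log2 fold change was -0.77 (SE 0.30, 95% interval -1.42 to -0.12, adjusted p = 0.0549 by edgeR), just outside the threshold. Leaving out single libraries moved the adjusted p from 0.0376 (without siTRIM28 replicate 1) and 0.0461 (without siNC replicate 3) to 0.231 (without siNC replicate 1). PCDHB1-AS1, annotated on the opposite strand across this gene's start, had almost the same counts, 41, 24 and 21 in siNC and 21, 19 and 9 in siTRIM28. The difference between these rows was at most 3 reads in any library, so they appear to hold the same reads, and which strand these came from cannot be told from the counts. PCDHB3 and the opposite-strand row ENSG00000272154 ran close in the same way, the latter with 14, 13 and 9 reads in siNC and 16, 11 and 12 in siTRIM28. In GENCODE v29, 19 of the 54 members have exon bases that overlap a gene on the other strand, among them PCDHA3, PCDHA13, PCDHAC2, PCDHB5 and PCDHB6.

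The other 12 beta genes (PCDHB1, PCDHB4, PCDHB7 to PCDHB16) did not pass the count minimum. PCDHB12 had the highest count in any library among them, 10 in siNC replicate 1, and 34 reads over the 6 libraries was the most for any of these 12. PCDHB15 had 0 reads in all siNC libraries, which allows up to 3 reads over the group (0.0741 CPM, counting error only), and 1, 0 and 2 in siTRIM28. The beta and gamma pseudogene rows PCDHB17P, PCDHB18P, PCDHB19P, PCDHGB8P and PCDHGB9P had 0 or 1 read in every library, and PCDHA14 had 1 read in all.

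**Figure D2:**
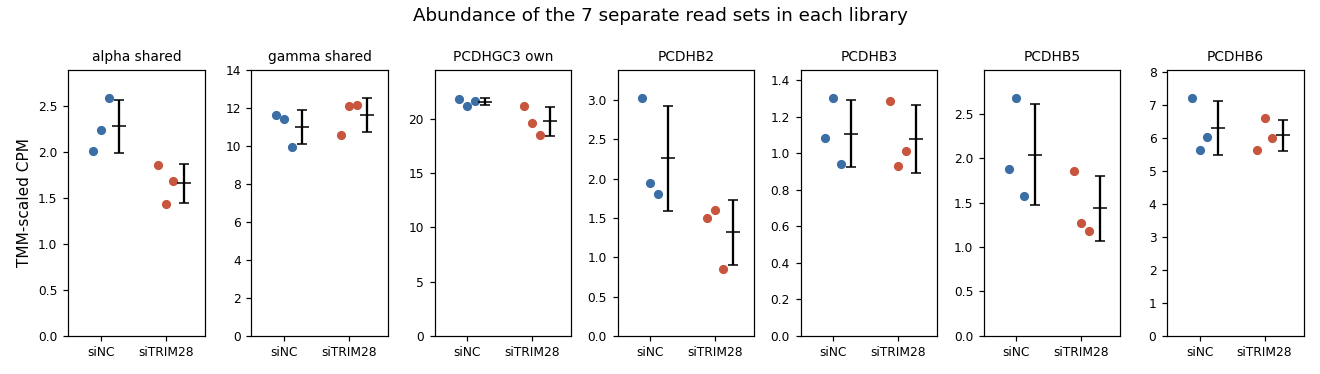
TMM-scaled CPM in each library for the 7 separate read sets, blue points for siNC and red points for siTRIM28, with the mean and SD of 3 libraries in black and each axis starting at 0. The groups do not overlap for the alpha shared reads, the own reads of PCDHGC3 and PCDHB2, and they overlap for the other 4. Among all genes tested as deposited, 52% had groups without overlap.

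**Figure D3:**
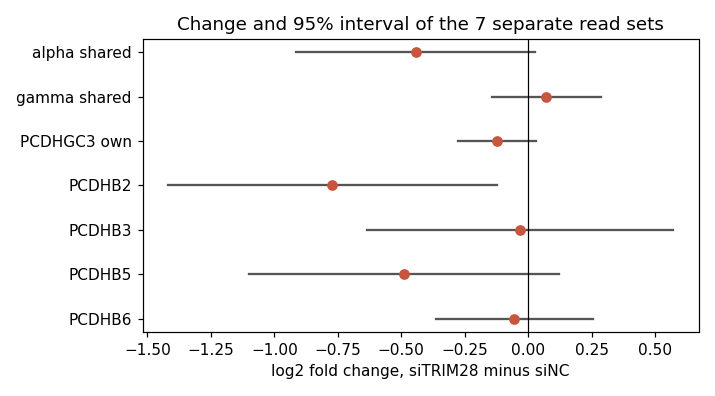
Log2 fold change, siTRIM28 minus siNC, of the 7 separate read sets as points, with the 95% interval of the edgeR fit as lines. The interval of PCDHB2 (-1.42 to -0.12) alone leaves out 0, and its adjusted p was 0.0549.

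Levels of different genes were compared per kilobase of the annotated exon bases of each read set, in siNC. Own reads of PCDHGC3 were highest at 6.63 ± 0.10 CPM per kilobase (SD, n = 3), above the gamma shared exons at 5.04 ± 0.41. PCDHB6 followed at 1.93 ± 0.25 and the alpha shared exons at 0.796 ± 0.10. The own-exon level of PCDHGC3 was above that of the exons common to all gamma genes by more than their SD, and the reason was not tested. Both stood above the rest by more than their SD. PCDHB5 (0.598 ± 0.168), PCDHB2 (0.548 ± 0.162), the own reads of PCDHA13 (0.379 ± 0.183) and PCDHB3 (0.330 ± 0.054) came next, and neighbours in that order did not differ beyond their spread. For PCDHB2 and PCDHB3, whose counts nearly equalled those of an opposite-strand row, these values may not be levels of the genes. An opposite-strand gene overlaps 620 of the 4126 exon bases of PCDHB2 and 356 of the 3355 of PCDHB3. Where along these genes the reads lie was not tested. PCDHGC5 had 0.229 ± 0.043 and PCDHGB1 0.175 ± 0.124 on the same scale. In siTRIM28 PCDHGC3 (6.07 ± 0.41), the gamma shared exons (5.32 ± 0.41) and PCDHB6 (1.86 ± 0.15) remained the 3 highest. Exon bases include alternative ends that T24 may not use, so these levels depend on the annotation. GENCODE v29 exon bases equal the deposited gene length for only 7 of the 54 members. The lengths and strand overlaps given here may thus differ from those of the annotation used for counting.

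Outside the members, the genes that start within 1 Mb of the clusters were counted by the same fit. Of 97 such rows 43 were tested, 15 rose and 6 fell by edgeR, which is 48.8% beside 41.8% over all genes, and their median log2 fold change was 0.17. Some reads are in that count more than once, since the called rows ANKHD1 and ANKHD1-EIF4EBP3 had nearly equal counts (3336 in both in siNC replicate 1), as had ANKHD1-DT (30) and ENSG00000302458 (27). The largest rises were in RELL2 (1.08), SPRY4-AS1 (0.90), EIF4EBP3 (0.75) and SPRY4 (0.73), an inhibitor of receptor tyrosine kinase signalling next to which SPRY4-AS1 lies on the other strand. EIF4EBP3, a translation repressor gene, shares its exons with a readthrough row and lost its call in 9 alternatives. The largest falls were in PFDN1 (-0.66), a prefoldin subunit, TMCO6 (-0.53), ZMAT2 (-0.44) and NDFIP1 (-0.43). Of 36 other rows inside the span of the clusters, 3 were tested. Only TAF7, a TFIID subunit gene between the beta and gamma genes, was called among them by edgeR. It had 2203, 2152 and 1952 reads in siNC and 1743, 1521 and 1497 in siTRIM28 (log2 fold change -0.30, SE 0.04, adjusted p = 1.25e-04). The members themselves thus lay among genes that moved in both directions.

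**Figure D4:**
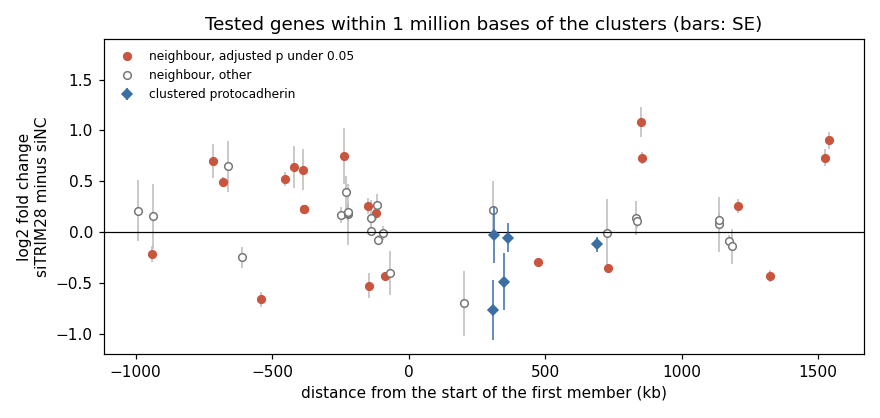
Log2 fold change (siTRIM28 minus siNC, bars SE) of tested genes within 1 Mb of the clusters against the distance of their start from the first member in kilobases. Filled red circles passed an adjusted p of 0.05, open circles did not, and blue diamonds are PCDHGC3 own reads and the 4 tested beta genes. RELL2 (1.08) and SPRY4-AS1 (0.90) are highest, and TAF7 (-0.30) is the called gene within the clusters.

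Known regulators of the clusters were expressed. All 27 of that list were tested, 9 rose and 9 fell by edgeR (66.7%, beside 41.8% over all genes), with a median log2 fold change of 0.03. Most of the list had a mean of 250 counts or more. At 250 to 450 counts 53.9% of genes were called, and no share was taken at higher depth. CTCF, the DNA-binding protein of the promoters' conserved elements, had 1657, 1676 and 1579 reads in siNC and 1283, 1061 and 1125 in siTRIM28 (-0.40, adjusted p = 3.11e-05 by edgeR, named for its role and not by its rank). The cohesin subunit STAG1 (-0.54) and the cohesin loader subunit MAU2 (-0.52) also fell, as did the histone methyltransferase EHMT2 (-0.78) and LRIF1 (-0.60), a partner of SMCHD1. Other cohesin subunits were called higher by edgeR, namely SMC3 (0.24, adjusted p = 2.58e-04), STAG2 (0.24, adjusted p = 0.0101) and SMC1A (0.17, adjusted p = 0.00893). The largest rises were in the DNA methyltransferases DNMT3B (0.48) and DNMT1 (0.39), the cohesin loader NIPBL (0.43) and ZNF274 (0.39), a KRAB zinc finger protein.

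The 19 proteins that bind or cut clustered protocadherins included 6 that rose and 4 that fell by edgeR (52.6%, beside 41.8% over all genes). Their median log2 fold change was 0.05. Most of these, too, had a mean of 250 counts or more, and 53.9% of genes were called at 250 to 450 counts. CYFIP2 (0.79), a subunit of the WAVE complex, the gamma-secretase subunits APH1B (0.74) and PSENEN (0.54), and the kinase PTK2 (0.24), which the inner end of clustered protocadherins binds, rose. APH1A (-0.48) and NCSTN (-0.26), also subunits of gamma-secretase, and WASF1 (-0.32) and CYFIP1 (-0.16) of the WAVE complex fell. NCSTN lost its call with 8 alternatives, among them DESeq2 (adjusted p = 0.097), and CYFIP1 with 2, DESeq2 (adjusted p = 0.0623) and the closest libraries summed (adjusted p = 0.0958 by edgeR).

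The protocadherins outside the clusters share no exons with the members and were read gene by gene. Of 12 such genes 5 were tested, and 1 was called by edgeR, PCDH17 (20%, beside 41.8% over all genes and 21.4% among genes with a mean of 10 to 40 counts, where PCDH17 lies). The median log2 fold change over the 5 was -0.06. PCDH17 had 14, 7 and 15 reads in siNC and 38, 27 and 32 in siTRIM28, without overlap (log2 fold change 1.52, adjusted p = 9.79e-04 by edgeR). PCDH15 (-0.06), PCDH10 (0.01), PCDH7 (-0.23) and PCDH9 (-0.14) did not pass. Below the count minimum, PCDH11X had 3, 3 and 1 reads in siNC and 11, 7 and 8 in siTRIM28. PCDH1 had 4, 3 and 4 in siNC and 7, 5 and 5 in siTRIM28. In both the groups did not overlap, and both were named after their values were seen. PCDH15 and PCDH10 had 240 to 467 reads per library, about as many as PCDHGC3.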

How the data were processed

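The authors deposited raw read counts per gene for 6 libraries of T24 cells (siNC, n = 3, and siTRIM28, n = 3, biological replicates per the labels). The submitters' processing notes name fastp 0.23.1, STAR 2.7.6a, featureCounts and GRCh38. The annotation release, the strand setting and the handling of reads in several genes are not given in the sources used here, although the library kit is a stranded one. A second deposited table, of genes the authors selected, holds no member and was not used. From these, edgeR 4.0.16 (R 4.3.3) was run with TMM factors on rows that reached 10 counts in 3 or more libraries, with Benjamini-Hochberg adjustment over all genes tested (adjusted p under 0.05). DESeq2 1.42.0, limma 3.58.1 voom, other scalings and filters, a replicate block and each library left out in turn were alternatives, and the test was checked on simulated data. SE is the log2 fold change over the square root of F. Exons and coordinates come from GENCODE v29, promoters from RefSeq, handled with Python 3.11.15. The members and lists were chosen with earlier results of these data known. Among members, the 20 with most reads and those called were to be named. Of each other list up to 4 called genes per direction were named, by size of change.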

Additional observations from a re-analysis of the deposited data

How the results depend on the processing

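The fall of TRIM28 and the counts of called neighbours and regulators held, within 1.5 times for counts, under every alternative run, and the members' median moved by less than its replicate spread (-0.010 to 0.11 with 1 library left out). The count of called members, 1 as reported, was 0 with DESeq2, 0 at an adjusted p under 0.01, 0 with shared reads counted once, 2 without a count filter (PCDHA13 and PCDHB2), 3 with at least 10 counts in every library (also PCDHAC1) and 2 with the replicate block (PCDHA13 and PCDHB2). Leaving out 1 library gave 0 to 1, as deposited and with shared reads counted once. Where it was 1 it was PCDHA13 without siNC replicate 1 or siTRIM28 replicate 3, and PCDHB2 without siNC replicate 3 or siTRIM28 replicate 1. Why the calls moved was not tested. Same-numbered libraries deviated together by correlations of only -0.012 to 0.052, and differently numbered ones by -0.066 to 0.039. These values show no strong pairing by number but cannot exclude one, and the block is given here alone. When the closest libraries (siNC replicates 1 and 2, siTRIM28 replicates 2 and 3, chi-square per degree of freedom 1.08 and 1.22) were summed, called partners were 6 in place of 10. The other pairs within a group had 4.17 to 6.25, so the closest pairs differed by little more than counting error. Whether the closest libraries came from separate cultures cannot be told from the counts. If they did not, the SD and SE given for n = 3 are too small. Called protocadherins outside the clusters were 2 without a filter and 0 with the strictest one. The level of PCDHGC3 in siNC, 80.9 counts per kilobase of deposited length, became 173 when the same counts, shared reads included, were divided by the length of its first exon, so 173 is no level of that exon. PCDHB3 turned to 0.0019 with upper-quartile scaling. Leaving out 1 library turned the sign of values near 0, with ranges of -0.19 to 0.098 for PCDHB3, -0.13 to 0.047 for PCDHB6, -0.010 to 0.13 for PCDHGC5, -0.0031 to 0.13 for PCDHGC4 and -0.00075 to 0.11 for PCDHGA10. The depth of 11712623 to 14018052 reads limits every row of fewer than about 40 reads, which covers the alpha cluster and all beta genes but PCDHB6.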
